A study of Mus musculus with 12 samples.

Results

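Nodal, Tdgf1, Foxh1, Lefty1 and Lefty2 are 5 genes of the Nodal signalling pathway, picked by name from the 48709 gene intervals of a mouse read count table because of their levels over the stages of heart development. Since the levels chose them, their levels are described here without a test. RNA was sequenced from the dissected cardiogenic region of mouse embryos, the tissue that makes the heart, with 3 libraries of total RNA from each of 4 stages and 12 in all: embryonic day 8 (E8), day 8.5 (E8.5), day 9.5 (E9.5) and day 14 (E14). The labels name no strain, genotype, sex or treatment, and they do not say whether embryos were pooled or whether libraries of a stage came from separate litters, so p-values rest on the spread between these libraries alone, and that spread may be technical. All 8 cardiac muscle markers listed had reads in every library, with a summed level of 15033 to 25233 counts per 1000000 (CPM).

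Nodal is a secreted ligand of the TGF-beta family that patterns the early embryo and later acts on the left side of the lateral plate mesoderm, from which heart tissue forms. It binds activin receptors together with a membrane-anchored co-receptor, Cripto, encoded by Tdgf1 (or Cryptic, encoded by Cfc1), and the signal reaches the nucleus through SMAD2 and SMAD3 bound to SMAD4, which pair with the DNA-binding factor FOXH1. Lefty1 and Lefty2 encode secreted inhibitors of Nodal that are themselves induced by the pathway.

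All 5 genes lie in intervals that overlap no other interval of the table (GRCm38 coordinates as deposited). They are Nodal (chr10:61417972-61425338, plus strand), Tdgf1 (chr9:110939603-110946158, minus), Foxh1 (chr15:76668284-76669948, minus), Lefty1 (chr1:180935022-180938400, plus) and Lefty2 (chr1:180893108-180899103, plus). The nearest neighbours on either side are Pald1 and Eif4ebp2 for Nodal, Gm24269 and Lrrc2 for Tdgf1, and Kifc2 and Ppp1r16a for Foxh1, with Kifc2 ending 87 bases from Foxh1. Next to Lefty2 lies Gm18036, and next to Lefty1 lies Tmem63a.

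Some of these genes have near copies, and the sequences are shown because reads from identical stretches cannot be assigned to 1 gene. Tdgf1 has a processed pseudogene, Tdgf1-ps1 (chr16:3730510-3731025, plus strand), whose 513 coding bases matched those of Tdgf1 in 506 positions (98.6%). The 7 differences, counted from 1 at the start codon with the base of Tdgf1 first, were C50T, T150C, T281C, G436A, C443T, C464T and A513T. The first 180 coding bases of both are given 5′ to 3′ with the differing bases in capitals. Those of Tdgf1 come from 4 exons (chr9:110945824-110945843, chr9:110944191-110944243, chr9:110943152-110943253 and chr9:110942640-110942644, minus strand), and those of the pseudogene from chr16:3730510-3730689, in the GRCm38 genome with GENCODE M21 models.
Tdgf1: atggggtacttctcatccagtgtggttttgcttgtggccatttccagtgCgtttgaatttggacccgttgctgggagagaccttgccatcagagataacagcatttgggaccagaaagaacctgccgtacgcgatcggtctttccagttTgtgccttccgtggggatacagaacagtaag
Tdgf1-ps1: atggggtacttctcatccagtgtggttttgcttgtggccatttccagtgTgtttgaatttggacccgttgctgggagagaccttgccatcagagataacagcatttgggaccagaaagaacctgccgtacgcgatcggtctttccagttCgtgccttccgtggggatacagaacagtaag

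The pair differed at only 2 bases over this stretch. Of the 464 windows of 50 bases in the pseudogene, 236 (50.9%) occurred unchanged in the Tdgf1 transcript, as did 86 of 414 windows (20.8%) of 100 bases. A further pseudogene, Tdgf1-ps2 (chr17:12189921-12190456, plus strand), matched the Tdgf1 coding sequence at 92.0% and shared 0 windows of 50 bases with it.

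Lefty1 and Lefty2 are a duplicated pair with coding sequences of 1104 bases each, identical at 1014 positions (91.8%) and different at 90. Between the Lefty transcripts 281 windows of 50 bases were shared, which is 17.9% of those of Lefty1 and 11.6% of those of Lefty2, so a part of the reads of either gene could have been counted under the other.

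Promoter sequences (RefSeq, GRCm38.p6) were at hand for 2 of the 5 genes, Tdgf1 and Nodal. That of Tdgf1 is shown because it is the gene with the widest range of levels and carries a repeat. The 250 bases before its start (chr9:110946159-110946408, minus strand, 5′ to 3′) hold 2 copies of a 19-base unit, in capitals, at bases -50 to -32 and -31 to -13 before the start.
Tdgf1 promoter: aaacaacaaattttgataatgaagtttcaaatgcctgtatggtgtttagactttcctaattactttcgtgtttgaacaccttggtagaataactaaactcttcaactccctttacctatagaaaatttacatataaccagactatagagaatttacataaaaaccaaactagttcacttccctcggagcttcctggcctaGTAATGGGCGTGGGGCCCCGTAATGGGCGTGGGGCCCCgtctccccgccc

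Each copy holds GGGCGTGG, a variant of the GC box. This motif was picked from the repeat itself, so its 2 matches here were given in advance. Of 32851 mouse promoters of the same length 0.615% held it at least 2 times on either strand (4.79% held it at all). The SMAD motif CAGAC occurred 1 time in the Tdgf1 window and in 42.2% of all promoters, and the GC box GGGCGG 1 time, beside 32.7%. The FOXH1 motif AATCCACA (0.718% of promoters) and the SMAD palindrome GTCTAGAC (0.167%) had 0 matches in both windows, and the Nodal window held 0 matches to any of these motifs. A match describes the letters only, and 0 matches says only that the letters are not in these 250 bases.

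Total counts per library ran from 101231014 to 122785175 in the E8 group, from 101202593 to 111404849 in that of E8.5, from 73056001 to 90620692 in that of E9.5 and from 56574386 to 97187372 in that of E14. Levels are given as raw counts and as CPM, which divide by the library size after scaling by edgeR's TMM method. Log2 fold changes come with their standard error (SE) from edgeR's quasi-likelihood model of all 12 libraries, and ratios of counts summed over a stage come with an exact 95% interval that covers counting error only. In RNA of bulk tissue such as this, fewer cells of a type and less RNA per cell cannot be told apart. E8.5 replicate 3 stands apart from replicates 1 and 2: its summed level of 10 visceral endoderm markers was 1714 CPM beside 156 and 59.9, and 25.0 to 25.8 at E8. Log2 fold changes of the 5 genes between E8.5 and its neighbouring stages are therefore also given without it.

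The co-receptor gene Tdgf1 and the nuclear factor gene Foxh1 were the most highly counted of the 5 at E8 and were close to 0 at E14, while the ligand gene Nodal had at most 39 counts in a library. The inhibitor genes Lefty1 and Lefty2 were near their lowest levels already at E9.5. The order of levels at E8 per kilobase of gene interval, introns included, was Foxh1 (29.5 ± 2.39 CPM per kb, mean ± SD, n = 3), Tdgf1 (9.30 ± 0.523), Lefty2 (0.488 ± 0.0362), Lefty1 (0.0755 ± 0.00820) and Nodal (0.0410 ± 0.00649). No neighbours in that order overlapped within 1 SD. The order of Foxh1 and Tdgf1 depends on the division by interval length (1665 and 6556 bases). In CPM at E8 Tdgf1 (61.0) was above Foxh1 (49.2). At E8.5 the order per kilobase was the same, but the SD of Lefty2 (0.462 ± 0.502), Lefty1 (0.105 ± 0.117) and Nodal (0.0318 ± 0.0126) overlapped. At E9.5 Foxh1 (8.94 ± 3.61) and Tdgf1 (1.99 ± 0.826) stood over Nodal (0.0248 ± 0.00704) and Lefty2 (0.0206 ± 0.0144), which overlapped, with Lefty1 lowest. At E14 all 5 were under 0.03 CPM per kb, with Lefty2 (0.0265 ± 0.00772) the highest and Tdgf1 (0.00121 ± 0.00106) the lowest.

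**Figure D1:**
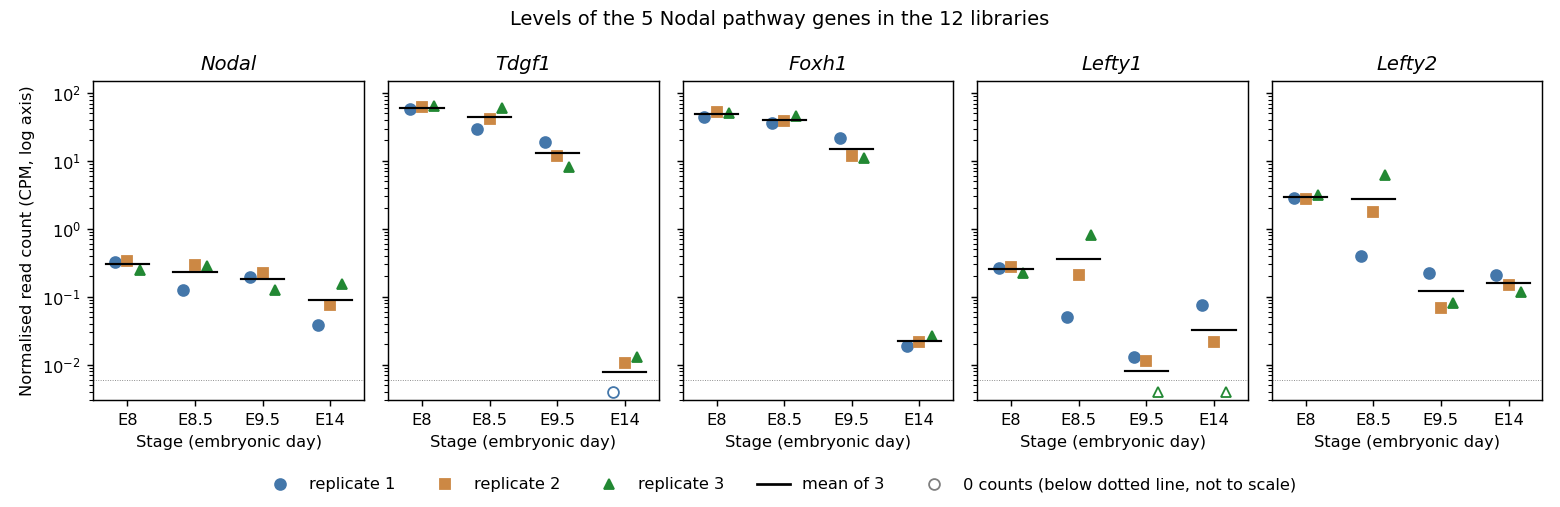
Normalised read counts (CPM, log axis) of the 5 genes in each of the 12 libraries, by stage; symbols mark replicates, bars the mean of 3 libraries, and open symbols below the dotted line libraries with 0 counts. Tdgf1 and Foxh1 step down at E9.5 and again at E14, Lefty1 and Lefty2 spread widely at E8.5 and are low from E9.5 on, and Nodal stays at or under 0.335 CPM.

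Nodal, the ligand, had 34, 39 and 31 counts in the E8 libraries, 15, 32 and 31 at E8.5, 15, 20 and 11 at E9.5 and 2, 7 and 12 at E14. The groups of neighbouring stages overlapped in CPM, and all 3 E14 libraries lay under all 3 of E8. In stage order the mean levels were 0.302 ± 0.0478, 0.235 ± 0.0931, 0.183 ± 0.0519 and 0.0900 ± 0.0605 CPM. Summed over each stage, 104 counts at E8 and 21 at E14 gave an E8 level 3.17 times that of E14 (95% interval 1.97 to 5.34), and the log2 fold change was -1.69 ± 0.47. At this depth E8 and E8.5 (1.29 times, 0.956 to 1.76) were not separable by counting error alone. The log2 fold change was -0.37 ± 0.41 for E8.5 against E8 and -0.55 ± 0.46 without E8.5 replicate 3, and for the step to E9.5 it was -0.35 ± 0.43 and -0.17 ± 0.48.

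Tdgf1, the co-receptor that lets activin receptors respond to Nodal, had 5987, 7224 and 7995 counts at E8 (57.2, 62.0 and 63.8 CPM). At E8.5 it had 3502, 4518 and 6577 counts (29.8, 41.8 and 59.5 CPM), at E9.5 1443, 1061 and 724 (18.9, 12 and 8.27 CPM), and at E14 0, 1 and 1. Only the E8 and E8.5 groups overlapped, through E8.5 replicate 3. The means were 61.0 ± 3.43, 43.7 ± 14.9, 13.1 ± 5.41 and 0.00794 ± 0.00697 CPM, and 0 counts in E14 replicate 1 allow a level of up to 0.0570 CPM, the worth of 3 counts. The E8 level was 4.78 times that of E9.5 (4.60 to 4.96). With 21206 counts at E8 and 2 at E14 the ratio was 6793 (1880 to 56092), and from E9.5 to E14 it was 1422 (393 to 11743). The log2 fold change was -0.48 ± 0.28 for E8.5 against E8, and for the step to E9.5 it was -1.74 ± 0.29. Without E8.5 replicate 3 these were -0.80 ± 0.29 and -1.42 ± 0.28.

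Cfc1 encodes Cryptic, the other co-receptor of the same family, and it is set beside Tdgf1 here. It is not among the 5 genes, but it too was named with earlier results of these data known. Its libraries held 515, 606 and 661 counts at E8, 358, 388 and 652 at E8.5, 158, 134 and 99 at E9.5 and 1, 4 and 6 at E14. From E8.5 to E9.5 Cfc1 fell, with a log2 fold change of -1.41 ± 0.28 and an adjusted p of 0.00256 in edgeR's test of all 28846 genes that passed the filter. It fell again from E9.5 to E14 (-4.96 ± 0.42, edgeR adjusted p = 1.85e-06). All 3 libraries of the later stage lay under all 3 of the earlier in both comparisons. The E8 level was 104 times that of E14 (57.9 to 208). E8.5 against E8 was not called (-0.30 ± 0.27, edgeR adjusted p = 0.490), and it was called without E8.5 replicate 3 (-0.66 ± 0.23, edgeR adjusted p = 0.0454). Within a library Cfc1 had 0.0827 to 0.137 counts per count of Tdgf1 from E8 to E9.5, with all 3 E9.5 libraries (0.109 to 0.137) above the other 6 (0.0827 to 0.102). Prss40, on the other strand, overlaps Cfc1 and had 0.389 times its counts.

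The counts of the pseudogene Tdgf1-ps1 ran beside those of its parent gene. It had 1054, 1266 and 1372 counts at E8, 856, 875 and 1158 at E8.5, 216, 171 and 122 at E9.5 and 0, 3 and 0 at E14. Per count of Tdgf1 this made 0.172 to 0.176 at E8, 0.176 to 0.244 at E8.5 and 0.150 to 0.169 at E9.5. Given the shared windows shown above, how many of these reads came from Tdgf1 transcripts cannot be told from counts. Tdgf1-ps2, which shares no 50-base window with Tdgf1, had 3 to 64 counts in every library and overlapping groups at E14 and E8.

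Foxh1, the partner of SMAD proteins on DNA, had 4687, 6109 and 6314 counts at E8, 4285, 4242 and 5118 at E8.5, 1662, 1039 and 968 at E9.5 and 1, 2 and 2 at E14. The mean levels were 49.2 ± 3.98, 40.6 ± 5.08, 14.9 ± 6.02 and 0.0222 ± 0.00357 CPM, with overlap between E8 and E8.5 only. The E8 level was 3.39 times that of E9.5 (3.27 to 3.52) and, on 17110 counts against 5, 2192 times that of E14 (939 to 6752). The log2 fold change was -0.28 ± 0.21 for E8.5 against E8, -1.45 ± 0.21 for E9.5 against E8.5 and -9.29 ± 0.44 for E14 against E9.5. Without E8.5 replicate 3 the values for E8.5 against E8 and for the next step were -0.41 ± 0.25 and -1.32 ± 0.24. At E9.5 replicate 1 had the highest level of both Foxh1 (21.8 CPM beside 11.8 and 11.1) and Tdgf1.

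The gene next to Foxh1, the kinesin gene Kifc2 on the opposite strand, kept a near constant ratio to it. Kifc2 had 0.411 to 0.483 counts per count of Foxh1 in the 9 libraries from E8 to E9.5, narrower than the range for Foxh1 per Tdgf1 (0.778 to 1.34). Its mean level was 20.9, 17.1, 6.45 and 1.44 CPM over the stages, and it fell at both later steps, by 1.41 ± 0.18 on the log2 scale from E8.5 to E9.5 (edgeR adjusted p = 0.000266) and by 2.16 ± 0.20 from there to E14 (edgeR adjusted p = 4.66e-06). At E14 the pair parted: Kifc2 had 76, 137 and 107 counts where Foxh1 had 1, 2 and 2. In RefSeq the Foxh1 gene is longer (chr15:76667829-76671614) and overlaps the deposited Kifc2 interval by 368 bases. Whether reads from either strand were counted together is not given in the sources used here, so reads of that overlap cannot be assigned. Ppp1r16a, the neighbour on the other side, went from 19.6 ± 0.487 CPM at E8 to 13.5 ± 0.471 at E14.

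**Figure D2:**
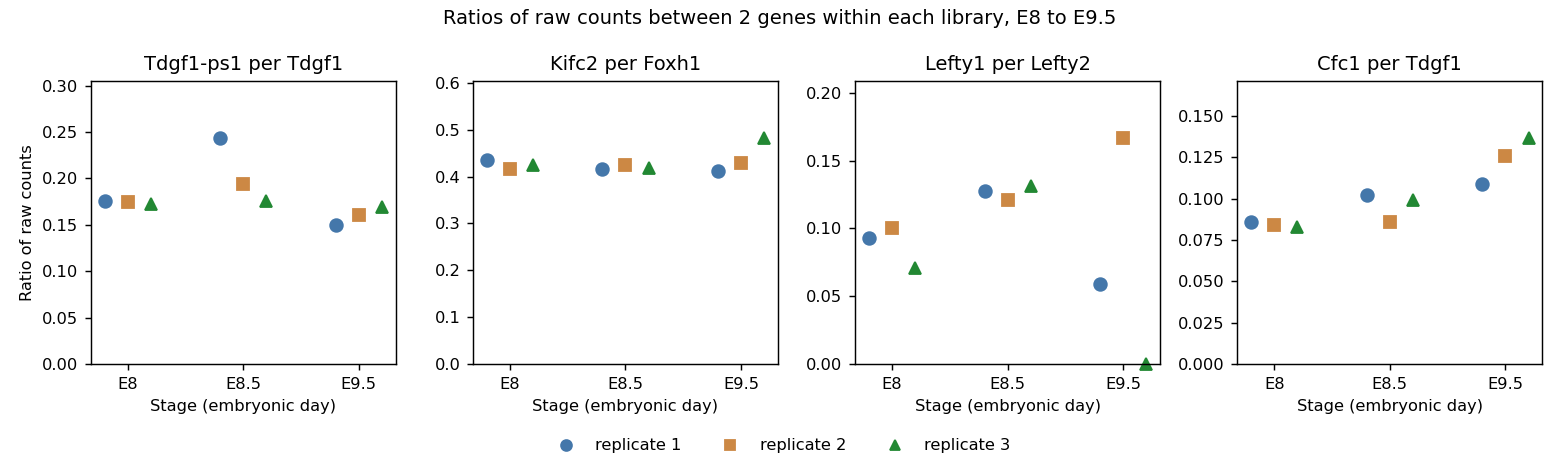
Ratio of raw counts between 2 genes in each library from E8 to E9.5 (vertical axis from 0, symbols mark replicates). Kifc2 per Foxh1 lies between 0.411 and 0.483 in all 9 libraries, Tdgf1-ps1 per Tdgf1 between 0.150 and 0.244 and Cfc1 per Tdgf1 between 0.0827 and 0.137, while Lefty1 per Lefty2 at E9.5 rests on 0 or 1 count of Lefty1.

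Lefty2, the more highly counted inhibitor, had 300, 320 and 397 counts at E8, 47, 190 and 681 at E8.5, 17, 6 and 7 at E9.5 and 11, 14 and 9 at E14. The 3 E8 libraries were close (2.75 to 3.17 CPM), the E8.5 libraries ran from under to over them (0.399, 1.76 and 6.16 CPM), and the E9.5 and E14 groups overlapped. The means were 2.93 ± 0.217, 2.77 ± 3.01, 0.124 ± 0.0863 and 0.159 ± 0.0463 CPM. The E8 level was 24.7 times that of E9.5 (17.2 to 36.7) and 19.2 times that of E14 (13.6 to 27.8), and E9.5 and E14 were not separable by counting error (0.777 times, 0.459 to 1.31). The log2 fold change for E8.5 against E8 was -0.08 ± 0.68 with all libraries and -1.48 ± 0.53 without E8.5 replicate 3. For E9.5 against E8.5 it was -4.50 ± 0.88 and -3.11 ± 0.61.

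Lefty1, the inhibitor known from the embryonic midline, had 28, 32 and 28 counts at E8, 6, 23 and 89 at E8.5, 1, 1 and 0 at E9.5 and 4, 2 and 0 at E14. As for Lefty2, replicate 1 was lowest and replicate 3 highest at E8.5, on both sides of the E8 libraries. The E8 level was 32 times that of E9.5 (8.60 to 268, on 88 counts against 2) and 9.40 times that of E14 (4.15 to 26.3). E8.5 against E8 was 0.48 ± 0.76 on the log2 scale with all libraries and -0.99 ± 0.67 without E8.5 replicate 3, so that its sign rests on that library. The step to E9.5 was -5.27 ± 1.22 with it and -3.80 ± 1.03 without it. Lefty1 had 0.0705 to 0.100 counts per count of Lefty2 at E8 and 0.121 to 0.131 at E8.5, where both genes varied more than 10-fold.

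At E8.5 the Lefty genes rose from replicate 1 to replicate 3, an order shared by most listed markers of gut endoderm, epiblast and neural tube. The share of all genes with that order was not counted, so the marker counts below have no background beside them. Of 8 markers of gut endoderm and epithelium, 7 had the same order of the 3 libraries as Lefty1 and Lefty2, among them the forkhead genes Foxa2 (65, 110 and 489 counts) and Foxa1 (82, 152 and 335). All 8 were highest in replicate 3, and their summed level was 182, 203 and 425 CPM beside 275 to 298 at E8. Most of the E8.5 sum was Krt8 (112, 120 and 209 CPM) and Krt18 (48.6, 56.7 and 123 CPM). All 10 visceral endoderm markers were also highest in replicate 3, yet only 1 of 10 had the order of the Lefty genes. Afp, which encodes a fetal serum protein, was among the 9 that did not (3004, 612 and 27149 counts). The 6 floor plate and notochord markers summed to 6.29, 6.53 and 9.77 CPM beside 8.13 to 8.87 at E8, and 2 of them kept the order. So did 6 of 8 epiblast and 4 of 6 neural tube markers, and 2 of 8 of cardiac muscle. Tdgf1 had the same order too, over a narrower range. The part of these markers in the levels of the Lefty genes was not tested.

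**Figure D3:**
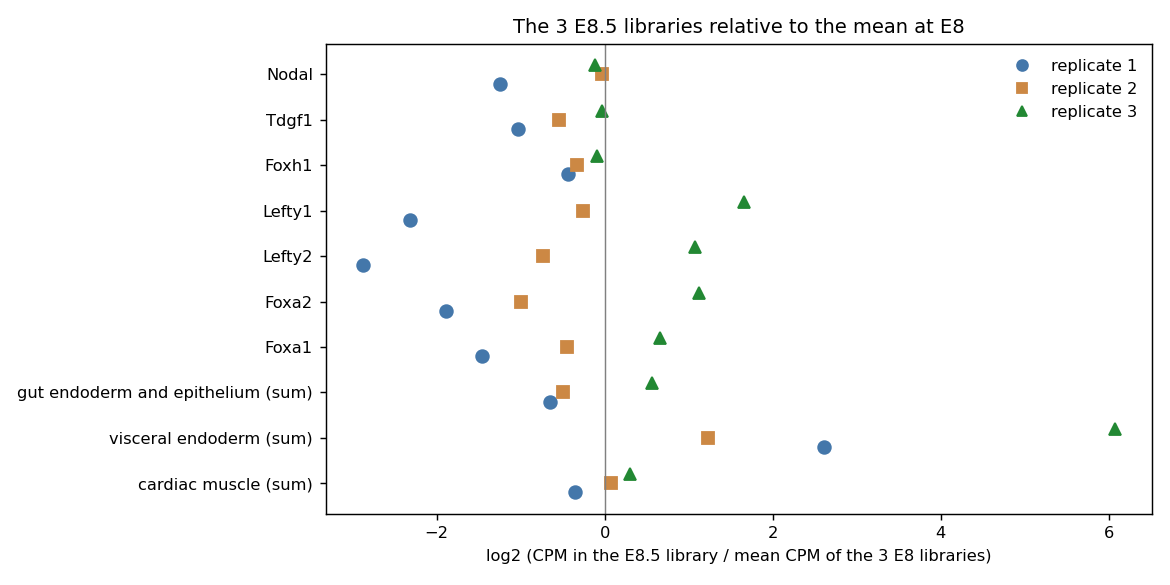
Level in each E8.5 library relative to the mean of the 3 E8 libraries (log2 of the CPM ratio, horizontal axis) for the 5 genes, 2 forkhead genes and 3 summed marker lists; symbols mark replicates and the vertical line the E8 mean. Lefty1, Lefty2, Foxa2 and Foxa1 lie below the E8 mean in replicates 1 and 2 and above it in replicate 3, whereas the visceral endoderm sum is above it in all 3.

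Summed levels of gut endoderm, floor plate and notochord, epiblast and neural tube markers were lower at E14 than at E8, as were those of the 5 genes, while that of cardiac muscle was higher. Gut endoderm genes summed to 107 to 141 CPM in the E9.5 libraries and 13.9 to 16.4 in those of E14. Most of the E9.5 sum was Krt8 (65.7 to 93.5 CPM) and Krt18 (31.8 to 38.8). In this paragraph rose, fell and called mean an edgeR adjusted p under 0.05. Of all genes tested 29.2% fell and 31.5% rose from E8 to E14. All genes of this list fell over that span but Sox17 (-0.31 ± 0.14), which was not called. For visceral endoderm the sums were 10.9, 76.0 and 133 CPM at E9.5 and 11.5 to 14.4 at E14, beside 25.0 to 25.8 at E8. Most of the E9.5 sum in replicates 2 and 3 was Afp (61.5 and 112 CPM), and the other 9 markers summed to 8.94, 14.5 and 20.7 CPM. Only Spink1 of this list fell from E8 to E14 (-6.41 ± 1.09, edgeR adjusted p = 0.000429). The rest were not called, and among them only Afp (1.80 ± 1.45) and Slc2a2 (0.23 ± 1.06) had positive log2 fold changes. The 8 epiblast genes had summed levels of 51.8 to 52.9, 47.0 to 67.5, 26.4 to 32.2 and 16.4 to 20.1 CPM in stage order. Most of the E8 sum was the DNA methyltransferase gene Dnmt3b (40.2 ± 0.829 CPM, and 6.91 ± 0.610 at E14). From E8 to E14 3 of the 8 fell, among them Dnmt3b and the pluripotency gene Pou5f1 (-2.08 ± 0.52, edgeR adjusted p = 0.0042), 1 rose, Nanog (1.46 ± 0.31, edgeR adjusted p = 0.00135), 3 were not called and Utf1, which was not tested, was at 0 counts at E14. The floor plate and notochord sums were 5.05 to 5.81 CPM at E9.5 and 0.990 to 1.35 CPM in the E14 libraries. Nog alone was 4.13 to 4.79 CPM at E9.5. From E8 to E14 Nog, Shh and Foxa2 fell, and Chrd (-0.00 ± 0.23) and T (-0.94 ± 0.42) were not called. The neural tube sums were 78.9 to 81.4 CPM at E9.5 and 43.6 to 48.3 CPM at E14. Nes alone was 77.3 to 80.0 and 42.9 to 47.7 CPM. From E8 to E14 Nes, Otx2, Pax6 and Sox2 fell, and Pax3 (-1.01 ± 0.87) was not called. Cardiac muscle genes summed to 15674 to 17216 CPM in the E9.5 libraries and to 22604 to 25233 in the E14 libraries. From E8 to E14 Tnnt2, Myh7, Actn2, Tnni1 and Actc1 rose. Nkx2-5 fell (-1.79 ± 0.13, edgeR adjusted p = 2.45e-07), and Ttn (-0.42 ± 0.31) and Myh6 (0.17 ± 0.11) were not called. The part of these cell types in the levels of the 5 genes was not tested.

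Across the 12 libraries the profile most like that of Tdgf1 was Foxh1 itself (Pearson r = 0.999 of log2 CPM, and 0.982 over the 9 libraries without E14), among 13425 genes with a mean of at least 1 CPM. Next came the cartilage collagen gene Col2a1 (0.998), Rrp1b, the zinc finger gene Sall4 and the phosphatase gene Dusp4, all at 0.998. Over the 9 libraries without E14, Cfc1 (0.995) and Col2a1 (0.986) were closer to Tdgf1 than Foxh1 was, so the first rank of Foxh1 rests on E14. For Foxh1 the 5 genes were Gata5os, Col2a1, the pentraxin gene Nptx2, Dusp4 and Tdgf1, each at 0.999. Lefty1 was most like Lefty2 (0.960, and 0.979 over 9 libraries), followed by the fatty acid ligase gene Acsl3 (0.959), Ccdc64, the tight junction gene Ocln and the filamin gene Flna (0.938). Over the 9 libraries without E14 Flna (0.981) was closer to Lefty1 than Lefty2 was, so the first rank of Lefty2 also rests on E14. Lefty2 was most like Acsl3 (0.983), Arl5b, Abi2, Flna and Loxl2 (0.968) among the more highly expressed genes. The likeness of Nodal was lower, with Il18bp (0.905), Ankrd10, Pde1b, Vwa2 and Vmn2r21 (0.898). Tdgf1 and Lefty2 had an r of 0.622 over 12 libraries and 0.966 over the 9 without E14, so their profiles part at E14, where Lefty2 kept 9 to 14 counts and Tdgf1 at most 1. These are descriptions: the libraries of a stage share their stage, and the stages make up most of each profile.

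The rest of the pathway was read from 3 lists of 55 genes that leave out the 5 genes: Nodal signalling (24), the left-right organiser and cilia (20) and mesendoderm targets of Nodal (11). Of these 51 were tested, and Gdf3, Cer1, Noto and Gsc lay under the filter on low counts. Gdf3, a co-ligand of Nodal, had 0 to 5 counts per library, the secreted antagonist Cer1 0 to 7, the notochord factor Noto 0 to 6 and the organiser gene Gsc 0 to 33. Rose and fell below mean an adjusted p under 0.05 in edgeR's quasi-likelihood test, adjusted over all 28846 genes. The lists were chosen with earlier results of these data known. Their counts beside the shares of all genes are therefore descriptions and not an independent test of the lists.

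Between E8 and E8.5 few pathway genes changed: 2 of 51 rose, 0 fell and 49 were not called, beside 0.891% and 0.291% of all genes tested, and 1.18% in either direction. At an unadjusted edgeR p under 0.05, 8 were higher and 5 lower, beside 16.0% and 12.1% of all genes. DESeq2 called 6 higher and 2 lower, beside 9.79% and 8.12%. The median log2 fold change was -0.01, and 0.02 over all genes. The genes called were Bicc1, an RNA-binding protein of the left-right organiser (0.95 ± 0.09, edgeR adjusted p = 0.0102), with 1259 to 1434 counts at E8 and 2408 to 2597 at E8.5, and the Nodal modulator gene Nomo1 (0.29 ± 0.06, edgeR adjusted p = 0.0492). The Bicc1 call ended without E8 replicate 3 (edgeR adjusted p = 0.136), when 0 pathway genes were called. That of Nomo1 ended under 17 of 21 alternatives (edgeR adjusted p = 0.0511 to 0.217). Without E8.5 replicate 3, 8 rose and 11 fell of 52 tested, beside 14.2% and 15.7% of all genes (29.9% in either direction). These included the Nodal signalling genes Smad3 (0.42 ± 0.10) and Acvr2b (0.41 ± 0.11), which rose, and Foxa2 (-1.41 ± 0.26) and Otx2 (-0.93 ± 0.31), which fell, with edgeR adjusted p from 0.00301 to 0.0416.

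From E8.5 to E9.5, 5 of 51 pathway genes rose and 21 fell, beside 18.4% and 18.5% of all genes (37.0% in either direction), and the median log2 fold change was -0.27 beside -0.03. Of the 22 Nodal signalling genes 4 rose and 9 fell. Among the receptors the type II genes Acvr2b (-0.77 ± 0.17) and Acvr2a (-0.54 ± 0.08) and the type I gene Acvr1b (-0.25 ± 0.07) fell, while the type I gene Acvr1c (0.36 ± 0.16) was not called. Of the signal carriers Smad2 (-0.44 ± 0.10) and Smad4 (-0.63 ± 0.21) fell, and Smad3 (-0.30 ± 0.13) was not called. The corepressor gene Ski (-0.48 ± 0.11), Nomo1 (-0.40 ± 0.06) and the SMAD4 ubiquitin ligase gene Trim33 (-0.27 ± 0.08) fell with them. Among the genes that rose were the proprotein convertase gene Pcsk6 (0.54 ± 0.13), Drap1 (0.43 ± 0.10) and the corepressor gene Tgif1 (0.26 ± 0.08). Gdf1, a co-ligand of Nodal (-0.19 ± 0.21), and the Nodal antagonist Dand5 (0.25 ± 0.19) were not called. The edgeR adjusted p of the called genes of this list ran from 0.000679 (Acvr2a) to 0.0376 (Smad4).

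In the other lists this interval had 0 of 19 organiser and cilia genes rising and 6 falling, and 1 of 10 mesendoderm genes rising and 6 falling. Among the organiser and cilia genes 0 were higher and 7 lower at an unadjusted edgeR p under 0.05, beside 23.1% and 24.0% of all genes, and DESeq2 called 0 higher and 7 lower, beside 19.7% and 19.5%. The first group included the ciliary transcription factor gene Rfx3 (-0.96 ± 0.15), Pkd1l1 (-0.67 ± 0.21), Cited2 (-0.66 ± 0.09) and the dynein genes Dnah5 (-0.58 ± 0.17) and Dnah11 (-0.53 ± 0.17). The Dnah11 interval overlaps that of Cdca7l, which had 1.69 times its counts, so that its reads are uncertain. The homeobox genes Otx2 (-3.60 ± 0.42) and Lhx1 (-3.29 ± 0.40), Foxa2 (-2.78 ± 0.63), T (-1.84 ± 0.46), Fgf8 (-1.71 ± 0.22) and Sox17 fell in the second. Mesp1, a factor of early cardiac mesoderm, rose (6.04 ± 0.53) from 1 to 4 counts per library to 124 to 187. Without E8.5 replicate 3, 8 rose and 24 fell of 52 tested in the 3 lists, beside 23.5% and 20.4% of all genes, and Foxa2 was at -1.41 ± 0.27. The mesendoderm list then had 11 tested genes, with Gsc among them, and its median was -0.39 where it had been -1.22 over 10.

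Several calls of this interval ended under other settings. An adjustment for gene span ended those of Smad4, Tgif1, Trim33, Dnah11, Dnah5 and Pkd1l1 (edgeR adjusted p = 0.0793 to 0.688). Their log2 fold changes were then -0.45 ± 0.18, 0.10 ± 0.08, -0.06 ± 0.06, -0.13 ± 0.22, -0.17 ± 0.17 and -0.33 ± 0.17, nearer to no change than in the main model. A model of E8.5 and E9.5 alone ended those of the same genes and of Acvr1b and T, among others (edgeR adjusted p = 0.0552 to 0.136). Without a filter on low counts Smad4, Tgif1, Trim33 and Dnah5 lost theirs (edgeR adjusted p = 0.0588 to 0.0693), and Tgif1 with upper-quartile factors (0.0521) and Smad4 with a replicate block (0.0508). Other losses came from leaving out 1 library. Without E9.5 replicate 2, Acvr1b, Smad4, Tgif1, Trim33, Dnah11, Dnah5 and Pkd1l1 lost theirs (edgeR adjusted p = 0.0620 to 0.0972), and without E9.5 replicate 3 the same genes except Trim33 (0.0647 to 0.105). Without E8.5 replicate 2 Smad4, Trim33, Dnah11, Dnah5 and Pkd1l1 did (edgeR adjusted p = 0.0540 to 0.0821), without E9.5 replicate 1 Smad4, Trim33 and Dnah11 (0.0556 to 0.0708), and without E8.5 replicate 1 Tgif1 and Pkd1l1 (0.0765 and 0.106). Without E8.5 replicate 2 the log2 fold change of Smad4 was -0.24 ± 0.09. That of Trim33 was -0.19 ± 0.07, of Dnah11 -0.56 ± 0.20, of Dnah5 -0.55 ± 0.19 and of Pkd1l1 -0.62 ± 0.24. The call of Smad4 also ended without E8 replicate 2 or 3 or any library of E14 (edgeR adjusted p = 0.0510 to 0.0565), and that of Dnah11 without E8.5 replicate 3 (0.119) or E14 replicate 2 (0.0524).

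Between E9.5 and E14, 10 of the 51 rose and 22 fell, beside 25.4% and 24.6% of all genes (50.0% in either direction), with a median of -0.27 beside 0.01. Acvr1c, the activin receptor-like kinase also called ALK7, rose most among the Nodal signalling genes (2.66 ± 0.16, edgeR adjusted p = 1.53e-07), from 69, 92 and 94 counts at E9.5 to 369, 536 and 490 at E14. Acvr2a (0.37 ± 0.08), the phosphatase gene Ppm1a (0.43 ± 0.08) and Drap1 (0.33 ± 0.10) rose as well. Acvr2b fell (-1.48 ± 0.18, edgeR adjusted p = 2.91e-05), as did the inhibitory SMAD gene Smad7 (-0.81 ± 0.14), Pcsk6 (-0.77 ± 0.13), Gdf1 (-0.58 ± 0.22) and the convertase gene Furin (-0.48 ± 0.16). Smad2 (-0.15 ± 0.10), Smad3 (-0.27 ± 0.13), Smad4 (-0.00 ± 0.21), Acvr1b (0.07 ± 0.07) and Dand5 (0.46 ± 0.19) were not called. The Gdf1 interval overlaps those of Upf1 and Cers1, which had 28.1 and 1.48 times its counts, so that its reads are uncertain. That of Acvr2a overlaps Orc4 (1.05 times), and that of Pcsk6 overlaps Gm45213 (1.06 times).

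In the organiser and cilia list 4 of 19 rose and 4 fell. Bicc1 (2.33 ± 0.10), the calcium channel gene Pkd2 (0.92 ± 0.10) and Ccdc39 (0.35 ± 0.13) were among those that rose, and Cited2 (-2.15 ± 0.10), Ccdc40 (-1.16 ± 0.12) and Invs (-0.46 ± 0.11) among those that fell. In the mesendoderm list 2 of 10 rose and 8 fell, with a median of -3.03. Mesp1 had 187, 124 and 147 counts at E9.5 and 0 in each E14 library, at least 134-fold lower, taking 3 counts summed over the E14 group as the floor. The largest of the other falls were in Otx2 (53 counts against 2, a ratio of 23.3 with an interval of 6.15 to 198), Foxa2 (73 against 3, 21.4, 7.05 to 106), Fgf8 (-3.84 ± 0.30), Lhx1 (-3.57 ± 0.66) and Wnt3 (-2.49 ± 0.46). The genes that rose were T (1.46 ± 0.48) and Sox17 (0.48 ± 0.14). Intervals of Ccdc39 and Invs overlap other genes (Ttc14 at 6.13 and Gm12435 at 0.641 times their counts).

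Some calls of the last interval also ended. With the gene span adjustment those of Gdf1 and Furin did (edgeR adjusted p = 0.108 and 0.0562), and with only E9.5 and E14 in the model that of Gdf1 (0.0626). The rest concern single libraries. That of Gdf1 ended without E8 replicate 1, 2 or 3, E9.5 replicate 1 or E14 replicate 2 or 3 (edgeR adjusted p = 0.0534 to 0.184). That of Furin ended without E9.5 replicate 1 or E14 replicate 1 or 3 (edgeR adjusted p = 0.0525 to 0.104), and that of Drap1 without any of the 3 E14 libraries (0.0508 to 0.0791). That of T ended without any of the E14 libraries, and without E9.5 replicate 2 or replicate 3 (edgeR adjusted p = 0.0512 to 0.0779).

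Over the whole span from E8 to E14, 6 of the 51 rose and 24 fell, beside 31.5% and 29.2% of all genes (60.7% in either direction), with a median of -0.40 beside 0.04. In the Nodal signalling list 3 of 22 rose: Acvr1c (3.34 ± 0.17), Dand5 (0.87 ± 0.19, from 0.718 ± 0.0632 to 1.32 ± 0.266 CPM) and Drap1 (0.34 ± 0.10). The 11 that fell began with Cfc1 (-6.67 ± 0.41), Acvr2b (-2.0 ± 0.18), Gdf1 (-1.13 ± 0.21), Smad7 (-1.06 ± 0.14) and Furin (-0.69 ± 0.16), and included Smad4 (-0.54 ± 0.21) and Smad2 (-0.32 ± 0.10). Acvr1b (-0.09 ± 0.07), Acvr2a (0.09 ± 0.08) and Smad3 (-0.27 ± 0.13) were not called. Of the called genes Smad4, Smad2 and Drap1 had edgeR adjusted p from 0.00926 to 0.0452, and those of Acvr1c, Cfc1 and Acvr2b were 1.87e-08, 8.55e-08 and 1.61e-06. The Smad2 call ended without E8 replicate 1 (edgeR adjusted p = 0.0709) and the Drap1 call without E14 replicate 1 (0.0627). That of Smad4 ended without any 1 of the E8, E9.5 or E14 libraries (edgeR adjusted p = 0.0540 to 0.103), with upper-quartile factors (0.0580) and without a filter (0.0558).

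Of the 19 organiser and cilia genes 3 rose over the whole span, among them Bicc1 (3.16 ± 0.10) and Pkd2 (0.80 ± 0.10), and 6 fell, among them Cited2 (-3.02 ± 0.10) and Ccdc40 (-1.34 ± 0.12). Of the 10 mesendoderm genes 0 rose and 7 fell in edgeR, beside 31.5% and 29.2% of all genes. At an unadjusted edgeR p under 0.05, 0 were higher and 10 lower, beside 33.5% and 31.1%, and DESeq2 called 0 higher and 7 lower, beside 30.6% and 30.4%. Fgf8, a growth factor of the early heart field, went from 9.97 ± 0.753 CPM at E8 to 0.170 ± 0.0679 at E14, a ratio of 63.5 (45.6 to 91.4). Otx2 had 1231 counts at E8 and 2 at E14 (394 times, 109 to 3260), Foxa2 707 and 3 (151 times, 51.5 to 734) and Lhx1 717 and 4 (115 times, 44.7 to 423). The median of this list was -4.18, and -2.47 with Mesp1 at its bound (at least 5.34-fold lower on 25 counts at E8 and 0 at E14). Mixl1 (-2.52 ± 0.50) and Wnt3 (-1.45 ± 0.47) also fell. The E14 comparisons with E9.5 and with E8 share the E14 libraries, so their values are not independent of each other.

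**Figure D4:**
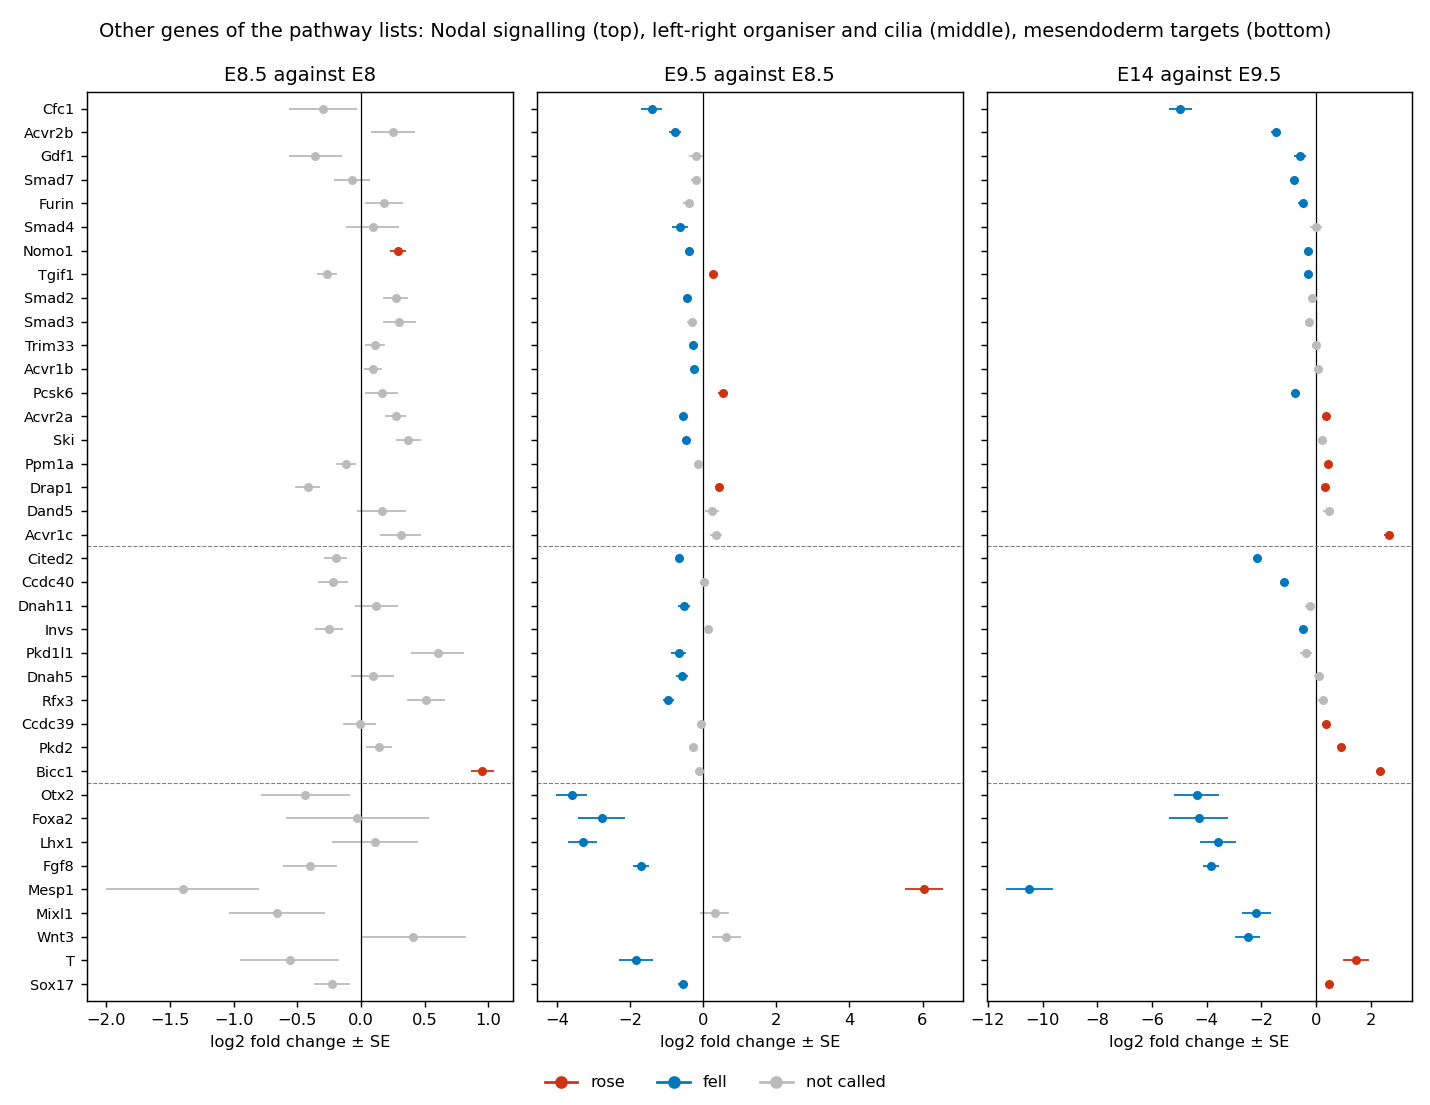
Log2 fold change with SE (horizontal axis) of the 38 genes of the 3 lists named in the text, of 51 tested, for each pair of neighbouring stages; red marks genes that rose, blue genes that fell and grey genes that were not called by edgeR, and dashed lines part the lists. For E8.5 against E8 only Bicc1 and Nomo1 are coloured, while 24 of the 38 are for E9.5 against E8.5 and 27 for E14 against E9.5, where the fitted value of Mesp1 rests on 0 counts at E14.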

How the data were processed

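Total RNA of dissected mouse cardiogenic regions was sequenced in 12 libraries. The tissue was put in TriZol and Illumina libraries were made, per the labels' protocols. The authors deposited whole-number read counts per gene interval, not normalised. The submitters' processing notes name STAR 2.5.0, Cufflinks 2.2.1 and the builds mm10, GRCm38 and hg38, without roles. Which tool counted the reads, with or without strand and on which annotation release, is not given in the sources used here. Intervals were matched to GENCODE M21 (GRCm38) for identifiers, transcripts and strands.

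Tests were run with edgeR 4.0.16 in R 4.3.3. Genes were filtered with filterByExpr (28846 of 48709 kept), scaled by TMM and fitted with a robust quasi-likelihood model with 1 mean per stage over all 12 libraries, and p-values were adjusted by Benjamini-Hochberg over all genes tested, with a threshold of 0.05. SE are the log2 fold change divided by the root of its F statistic. CPM use TMM-scaled library sizes, and correlations use log2 CPM with a prior count of 2. Ratios between stages use summed counts with exact 95% intervals, and PCR reads without molecular identifiers are not independent molecules. Counts of libraries of 1 stage were further apart than sampling noise (a chi-square of 8.75 to 212 per gene on average). The model was tested on simulated data. Python 3.11.15, pandas 2.3.3, scipy 1.17.1, Biopython 1.88 and matplotlib 3.10.9 made the tables, sequence comparisons and figures.

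The 5 genes, the lists and the rule for named genes were chosen with earlier results of these data known. The rule took the 5 genes, their neighbours, 13 core pathway genes, up to 6 called genes per list and comparison with the largest change, marker genes set beside a member, and the 5 genes most like each member in log2 CPM over the libraries, of at least 1 mean CPM, without predicted genes, Rik, LOC, small RNA, ribosomal and pseudogene names. Listed genes outside it are otherwise given as counts only, and Sox17, Ccdc39, Tdgf1-ps1 and Tdgf1-ps2 were named after their values were seen. Alternatives were RLE and upper-quartile factors, other filters, a replicate block, models fitted to the compared stages alone, the tool DESeq2 1.42.0, an adjustment for gene span, small structural RNA genes left out and each library left out in turn. Correlations without E14 were chosen after seeing the data. Some genes that the rule names, and some sequences, are not reported here.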

Additional observations from a re-analysis of the deposited data

How the results depend on the processing

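For E8.5 against E8, 2 of the pathway genes were called by edgeR in the model of all libraries. The number was 1 with RLE factors, 1 without a filter on low counts, 1 with the gene span adjustment and 1 in the fit of the compared stages alone, and 8 with DESeq2. It was 0 to 19 with each library left out in turn: 0 without E8 replicate 3, 19 without E8.5 replicate 3 and 1 without each of the others. Over all genes this comparison gave 341 calls, 0 without E8 replicate 3 and 8865 without E8.5 replicate 3, 3 with the replicate block, 9 with the compared stages alone, 593 without small structural RNA genes, 1564 with a filter of 1 CPM in 3 libraries and 4351 with DESeq2. For E9.5 against E8.5 26 pathway genes were called, 16 when only those stages were fitted and 18 to 32 with a library left out. For E14 against E9.5 32 were called (25 to 35 with a library left out) and for E14 against E8 30 (27 to 40). Of 84 calls of named pathway genes 20 ended under at least 1 of 21 alternatives and 0 changed sign. Why a call ended was not tested, beyond there being fewer libraries or genes in some fits. The labels give each stage the replicate numbers 1 to 3 without saying what a number stands for. Deviations of same-numbered libraries from their stage means had r from -0.084 to 0.134 between stages. Whether same-numbered libraries shared a litter or a run was not tested. With the replicate block 1, 25, 30 and 29 pathway genes were called in the comparisons in the order above, and 3 of the 84 calls ended. The counts limit Nodal and Lefty1 most, with at most 39 and 89 reads in a library.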
